A study of Mus musculus with 8 samples.

Results

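Genes of insulin-like growth factor (IGF) and AKT signalling were followed through 8 spotted 2-colour arrays. They were IGF2 (Entrez 3481), IGFBP2 (3485), IGF2R (3482), AKT1 (207), GSK3A (2931) and EIF4EBP1 (1978), 6 of the 2922 genes that a spot names singly. Each was printed as 2 adjacent spots, so that they account for 12 of 9984 spots. The 6 genes were chosen from the matched-hour scores of these same arrays, conditioned over control medium. Those scores are therefore a description here, with no test.

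The RNA came from C2C12, a mouse myoblast line, kept for 0, 14 or 24 h in control medium (MBN), or for 14 or 24 h in medium (MBC) that the human pancreatic cancer line CAPAN-1 had conditioned. MBC14 was set against MBN14 and MBN0, and MBC24 against MBN24 and MBN0, with the conditioned RNA in Cy5 on array A and in Cy3 on array B. Both arrays of a comparison carried the same pair of RNAs, so they count as 1 replicate and their SD is technical. For array B of MBC14 over MBN0 the labelling text contradicts the dye field, and the dye field was followed. All groups share 1 cell line in a growth medium with fetal bovine serum, and no separate cultures are recorded. The annotation names human genes and the RNA is murine, so a spot may have bound the mouse counterpart or a relative.

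IGF2 is a growth factor that myoblasts secrete and respond to when they differentiate. IGF binding proteins such as IGFBP2 hold IGFs in the extracellular space, and IGF2R takes IGF2 up for breakdown without signalling through a kinase. The type 1 IGF receptor and the insulin receptor signal through PI3-kinase to AKT kinases, which inhibit GSK3 and, through mTORC1, release translation from its repressor 4E-BP1, the product of EIF4EBP1. In muscle this route favours protein and glycogen synthesis and restrains protein breakdown. The arrays measured transcripts and say nothing of phosphorylation.

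Promoters of the mouse counterparts are shown for the 3 genes that passed the size rule defined below in at least 2 comparisons, Igfbp2, Akt1 and Gsk3a. Entries were found for 5 of the 6 genes, with 10 start sites in all, and the first one listed is printed (RefSeq, GRCm38.p6, 250 bases before to 50 after the start, 5′ to 3′ on the gene's strand). Capitals mark the GC box GGGCGG and the FOXO motif GTAAACA on either strand.

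Igfbp2 chr1:72824230-72824529 (+): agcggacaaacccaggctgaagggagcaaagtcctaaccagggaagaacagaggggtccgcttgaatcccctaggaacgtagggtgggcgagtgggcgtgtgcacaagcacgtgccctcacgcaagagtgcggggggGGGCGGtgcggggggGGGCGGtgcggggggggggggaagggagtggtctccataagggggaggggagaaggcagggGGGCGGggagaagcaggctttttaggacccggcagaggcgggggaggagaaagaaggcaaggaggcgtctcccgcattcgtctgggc
Akt1 chr12:112674835-112675134 (-): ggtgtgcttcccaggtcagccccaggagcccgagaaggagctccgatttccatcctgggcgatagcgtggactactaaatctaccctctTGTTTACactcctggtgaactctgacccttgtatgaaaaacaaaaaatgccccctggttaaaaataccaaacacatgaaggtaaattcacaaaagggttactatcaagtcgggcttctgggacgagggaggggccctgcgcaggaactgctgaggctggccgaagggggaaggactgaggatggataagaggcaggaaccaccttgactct
Gsk3a chr7:25237802-25238101 (-): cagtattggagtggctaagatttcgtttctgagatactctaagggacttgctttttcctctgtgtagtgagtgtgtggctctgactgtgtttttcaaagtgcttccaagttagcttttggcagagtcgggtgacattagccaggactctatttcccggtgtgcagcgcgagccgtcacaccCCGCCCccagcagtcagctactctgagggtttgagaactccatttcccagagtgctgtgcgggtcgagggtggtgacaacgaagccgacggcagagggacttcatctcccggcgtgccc

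The Igfbp2 window held 3 GC boxes, that of Gsk3a held 1 and that of Akt1 held 0. A GC box occurred in 35.7% of all 32851 promoter windows. The FOXO motif, bound by the transcription factors that AKT keeps out of the nucleus, occurred once in the Akt1 window and in 3.65% of all windows. The E-box CANNTG, which myogenic factors bind, occurred once in the windows of Igfbp2 and Akt1, not in that of Gsk3a, and in 72.3% of all windows. A second listed start differs: that of Akt1 held 5 GC boxes and 0 FOXO motifs, and that of Igfbp2 held 0 GC boxes and 2 E-boxes. Binding at these windows was not measured.

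The deposited values are signed scores of unstated scale and direction, with medians of -0.057 to 0.095 and SDs of 1.34 to 1.58 over the 8 arrays, so differences are given in score units and not as folds. The number of arrays limits the precision. Before any turning, the correlation across genes of array A with array B was -0.32 and -0.28 in the matched comparisons of 14 and 24 h, and -0.13 and -0.27 in those with MBN0. The scores were therefore read as Cy5 over Cy3, with array B turned in sign. The other reading, in which both arrays already run as conditioned over control, is given beside it, since the sources leave this unstated. A positive score is read as higher in conditioned medium, which is likely from the labels' naming of test and reference channels. A gene passed the size rule when the mean of its 2 arrays was at least 1 score unit and each array gave at least 0.5 the same way. At 14 h against the matched control 4 of the 6 genes passed it, IGF2 and IGFBP2 higher and IGF2R and GSK3A lower, where 19.9% of all genes passed. At 24 h 3 of 6 passed, IGFBP2, AKT1 and EIF4EBP1, all higher, where 17.6% of all genes passed. Since these values chose the genes, the shares are not set against each other. With array B as deposited 0 of 6 passed at either hour, where 6.37% and 6.02% of all genes passed.

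**Figure D1:**
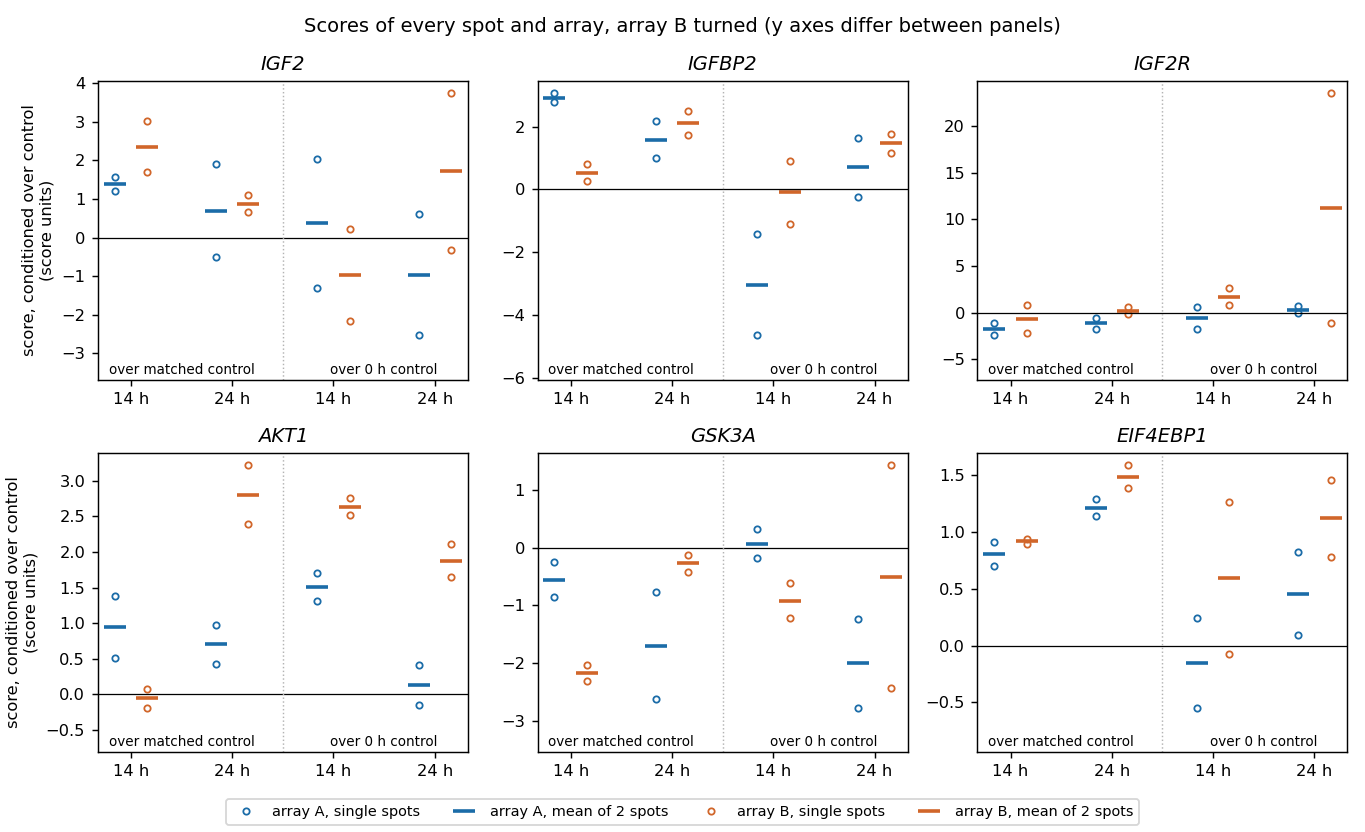
Scores of the 6 genes in score units (y axis) in the 4 comparisons (x axis), turned so that positive is higher in conditioned medium. Circles are single spots and bars the mean of the 2 spots on array A (blue) and array B (orange). EIF4EBP1 sits above 0 on all 4 matched-hour arrays, from 0.80 to 1.49, and 1 spot of IGF2R at 23.52 stands far from all others.

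IGF2, the ligand, scored 1.39 on array A and 2.36 on array B of MBC14 over MBN14, a mean of 1.88 ± 0.68 (SD, n = 2 arrays, as for each ± below unless stated). At 24 h it scored 0.70 and 0.88, a mean of 0.79 ± 0.13 that missed the size rule. All 4 matched-hour arrays were thus above 0. Against control medium at 0 h the arrays disagreed, with 0.37 and -0.97 at 14 h (mean -0.30 ± 0.94) and -0.96 and 1.71 at 24 h (mean 0.38 ± 1.89). The adjacent spots of IGF2 agreed poorly. They had the same sign on 3 of 8 arrays and a median difference of 2.40, above the median difference of 99.7% of the 4992 adjacent spot pairs. On array B of MBC24 over MBN0 the spots read -0.31 and 3.74, and on array A of MBC24 over MBN24 they read -0.51 and 1.91. With array B as deposited IGF2 scored -0.48 and -0.091 against the matched controls at 14 and 24 h, 0.67 at 14 h over MBN0 and -1.34 at 24 h over MBN0. Only the last of these passed the size rule.

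IGFBP2, a binding protein for both IGFs, had the highest mean over both matched hours of the 6 genes. Its array values were 2.92 and 0.53 at 14 h (mean 1.73 ± 1.69) and 1.58 and 2.12 at 24 h (mean 1.85 ± 0.38). All 8 matched-hour spot values lay above 0, from 0.26 to 3.06. The mean over both hours, 1.79, was above that of 97.2% of all genes, and it was among the values that chose the gene. Over MBN0, IGFBP2 scored -3.04 and -0.087 at 14 h (mean -1.56 ± 2.09) but 0.71 and 1.47 at 24 h (mean 1.09 ± 0.54). At 14 h 1 spot of array A read -4.64 and the other -1.43, while the spots of array B fell on either side of 0. The score at 24 h passed the size rule. Read as conditioned over control, IGFBP2 scored 1.20 ± 2.44 and -0.27 ± 2.62 at the matched hours and -1.48 ± 2.21 and -0.38 ± 1.54 over MBN0. None of these 4 passed the size rule, and their arrays lay far apart.

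IGF2R, the receptor that removes IGF2, scored -1.76 and -0.73 in MBC14 over MBN14 (mean -1.25 ± 0.73) and -1.13 and 0.20 in MBC24 over MBN24 (mean -0.46 ± 0.95). It lay opposite IGF2 at 14 h. Its matched-hour scores were also below 0 with array B as deposited, at -0.51 and -0.67. Over MBN0 its value was set by 1 spot. On array B of MBC24 over MBN0, spot 2 of IGF2R was deposited as -23.57, the lowest of all 79872 values on the 8 arrays, where the next lowest of any spot was -20.02. After centring, that spot read -23.52 and its neighbour 1.16. With both spots the mean score over MBN0 at 24 h was 5.75 ± 7.68, and without spot 2 of that array it was -0.42 ± 1.05. At 14 h over MBN0 the arrays read -0.57 and 1.72, a mean of 0.57 ± 1.62. The spots of IGF2R shared a sign on 3 of 8 arrays.

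AKT1, the kinase in the middle of the route, had the highest score of the 6 genes in MBC14 over MBN0. In MBC14 over MBN14 it scored 0.95 and -0.055 (mean 0.45 ± 0.71). In MBC24 over MBN24 it scored 0.70 and 2.80 (mean 1.75 ± 1.49), past the size rule. Over MBN0 it scored 1.51 and 2.64 at 14 h (mean 2.08 ± 0.80) and 0.13 and 1.88 at 24 h (mean 1.002 ± 1.24), and the former passed. Array B gave the larger value than array A in 3 of the 4 comparisons. Its adjacent spots stayed close, with differences of 0.25 to 0.87 and a median of 0.50. AKT1 in the other reading scored 0.50 and -1.05 at the matched hours and -0.56 and -0.87 over MBN0, and passed nowhere.

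GSK3A, a kinase that restrains glycogen synthase and is inhibited by AKT, scored below 0 on all 4 matched-hour arrays. The values were -0.55 and -2.16 at 14 h (mean -1.36 ± 1.14) and -1.69 and -0.28 at 24 h (mean -0.98 ± 1.003), and only the former passed. Over MBN0 the arrays read 0.068 and -0.91 at 14 h (mean -0.42 ± 0.69) and -1.99 and -0.50 at 24 h (mean -1.25 ± 1.05), and the latter passed. That last value depended on the spot, since array B held spots of -2.43 and 1.42. Without spot 1 the mean became 0.096. Read as conditioned over control, GSK3A scored 0.80 and -0.71 at the matched hours and 0.49 and -0.74 over MBN0, each below 1 in size.

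EIF4EBP1, which encodes the translation repressor at the end of the mTORC1 branch, scored above 0 on each matched-hour array. It scored 0.80 and 0.92 at 14 h (mean 0.86 ± 0.081) and 1.21 and 1.49 at 24 h (mean 1.35 ± 0.19), and the latter passed. Its spots differed by a median of 0.44, at percentile 13.7 of all adjacent pairs. Over MBN0 it scored -0.15 and 0.59 at 14 h (mean 0.22 ± 0.53) and 0.46 and 1.12 at 24 h (mean 0.79 ± 0.47), so neither passed. It was near 0 in the other reading at both matched hours, at -0.057 and -0.14.

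**Figure D2:**
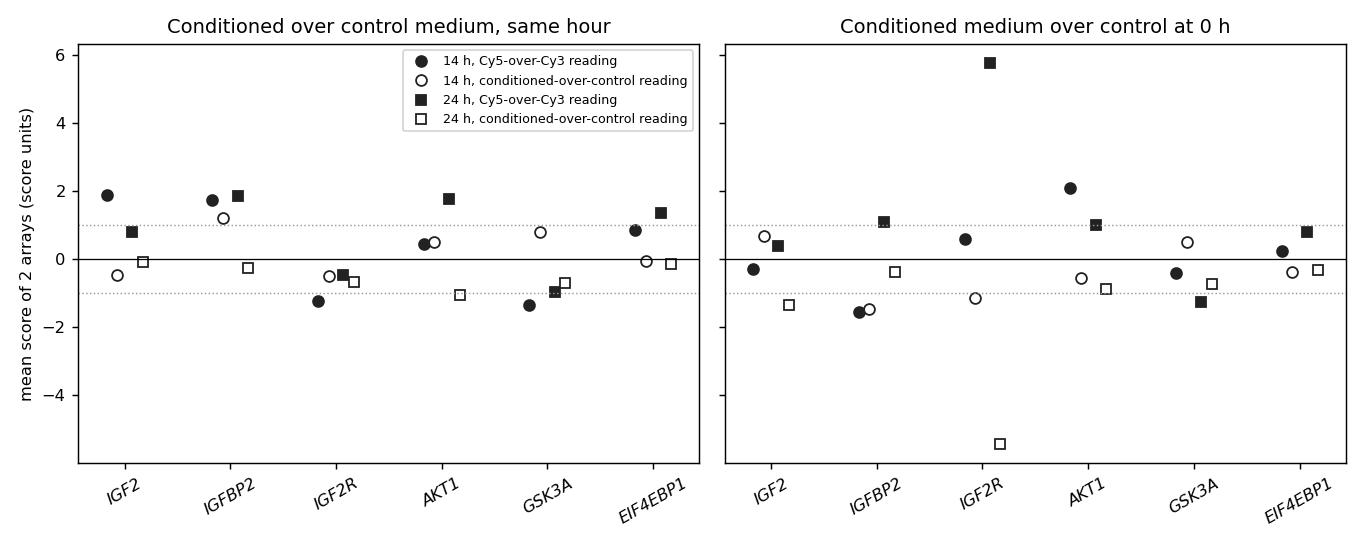
Mean score of 2 arrays in score units (y axis) for each gene (x axis) against the control at the same hour (left) and at 0 h (right), in the Cy5-over-Cy3 reading (filled) and the conditioned-over-control reading (open). Circles are 14 h, squares 24 h, and dotted lines the size of 1 score unit used by the size rule. At the matched hours 7 of 12 filled symbols and 0 of 12 open ones belong to scores past the rule. Of all genes 19.9% at 14 h and 17.6% at 24 h passed in the filled reading, and 6.37% and 6.02% in the open one. The matched-hour scores chose the genes.

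Across the 6 genes the spots shared a sign in 30 of 48 pairs of adjacent spots (62.5%), against 66.4% of all such pairs on the arrays. The sign of array A equalled that of turned array B in 10 of 12 matched-hour scores and in 7 of 12 scores over MBN0. The orientation was chosen on such a likeness over all genes, and the genes on their matched-hour means, so the former share follows in part from these choices.

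The comparisons with MBN0 used arrays that had not chosen the genes, although they held the same MBC14 and MBC24 RNAs. At 14 h 1 of 6 genes passed the size rule, AKT1, where 15.7% of all genes passed. At 24 h 2 of 6 passed, IGFBP2 higher and GSK3A lower, where 19.3% of all genes passed. The other reading passed 1 of 6 at each hour, IGF2R lower at 14 h and IGF2 lower at 24 h, where 10.3% and 6.84% of all genes passed. A shift common to both hours over MBN0 was tested with limma on 2 array-averaged values per gene, two-sided with Benjamini-Hochberg adjustment over all 2922 genes. The 2 values share the MBN0 RNA, so the spread of the control is left out. In this fit 5.75% of all genes passed at an adjusted p under 0.05.

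AKT1 was higher in conditioned medium than in control medium at 0 h in this test, with a shift of 1.54 ± 0.48 (SE, n = 2 values) and an adjusted p of 0.0306 in limma. All 4 arrays lay above 0. The test sets medium and hours together, and they cannot be told apart in it. Derived as described below, AKT1 in control medium over MBN0 came to 1.63 ± 1.51 at 14 h and -0.75 ± 0.25 at 24 h (SD). The call was kept in 5 of 13 alternative settings, whose adjusted p in limma ran from 0.0155 to 0.703. Of these 5, only scaling the arrays changed the shift of AKT1 (1.55). Spot medians, leaving out adjacent spots that differ by over 2 units or the lowest spot value, and a robust fit left it at 1.54. Its own values did not change there, so these settings say little of the call. The call was lost without array A (2.26, adjusted p = 0.0680 in limma), without array B (0.82, adjusted p = 0.703) and without centring (adjusted p = 0.140). IGF2R also passed, with a shift of 3.16 ± 0.48 (SE) and an adjusted p of 7.9e-08 in limma. Without its extreme spot value the shift of IGF2R was 0.078 (adjusted p = 0.950 in limma), so this call is that of 1 spot. limma gave every gene the same SE here, so the wide spread of IGF2R between arrays did not enter its p. IGF2 (0.037), IGFBP2 (-0.24), GSK3A (-0.84) and EIF4EBP1 (0.50) did not pass, with adjusted p from 0.352 to 0.977 in limma. With array B as deposited limma called 0 genes over MBN0 (0% of those tested), with 228 at an unadjusted p under 0.05, and the shift of AKT1 was -0.72.

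The course in control medium was derived by subtracting the matched-hour score from the score over MBN0, within each array letter. Such differences are indirect and hold only as far as the scores add. MBN14 over MBN0 came to -2.18 ± 1.63 for IGF2, -3.29 ± 3.78 for IGFBP2, 1.63 ± 1.51 for AKT1, 0.94 ± 0.44 for GSK3A and -0.64 ± 0.44 for EIF4EBP1. MBN24 over MBN0 came to -0.41 ± 1.76 for IGF2, -0.76 ± 0.16 for IGFBP2, -0.75 ± 0.25 for AKT1, -0.26 ± 0.050 for GSK3A and -0.56 ± 0.28 for EIF4EBP1. IGFBP2 was lowest in MBN14, followed by MBC14 (-1.56), MBN24 (-0.76), MBN0 (0 by definition) and MBC24 (1.09). By construction the step from MBN14 to MBC14 is the matched-hour score of 14 h, 2.92 and 0.53 on arrays A and B (mean 1.73 ± 1.69). The SDs of MBN14 (3.78) and MBC14 (2.09) are wide enough to take in the mean of MBN24. In the other reading MBN14 (-2.67) and MBC14 (-1.48) were again lowest, but MBC24 (-0.38) and MBN24 (-0.11) both lay below MBN0. The last 3 of the AKT1 order, MBN24 (-0.75), MBN0, MBC24 (1.002), MBN14 (1.63) and MBC14 (2.08), overlap within their SDs. Within each array letter MBC24 lay below MBC14, by a difference of -1.39 on array A and -0.76 on array B. The order of AKT1 was nearly inverted in the other reading, with MBN14 (-1.06), MBC24 (-0.87), MBC14 (-0.56), MBN0 and MBN24 (0.18). For IGF2 and EIF4EBP1 both control hours lay below 0 and MBC24 above it, with SDs for IGF2 wider than most of its steps. With array B as deposited IGF2 read 1.15 in MBN14, -1.25 in MBN24 and -1.34 in MBC24, and EIF4EBP1 read -0.31, -0.19 and -0.33. GSK3A lay highest in MBN14 and lowest in MBC24, whereas in the other reading MBN14 was at -0.31, MBC14 was highest (0.49) and MBC24 was again lowest (-0.74). IGF2R, at 1.82 ± 0.89 in MBN14, gave 6.22 ± 6.73 in MBN24, a value that carries its extreme spot, and read -0.63 and -4.76 in the other reading.

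**Figure D3:**
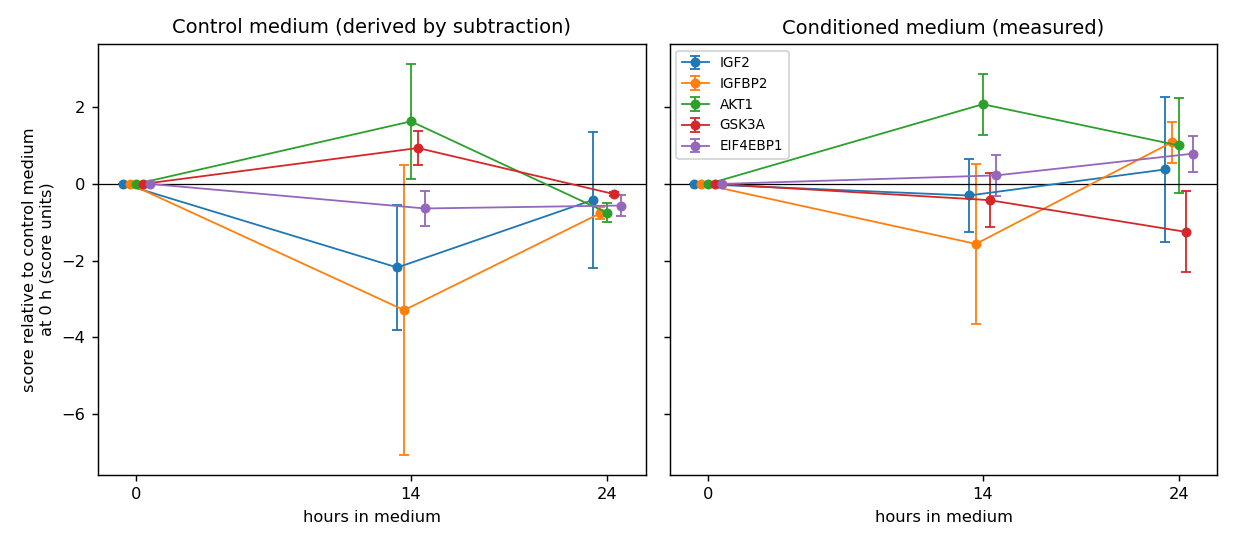
Score relative to control medium at 0 h in score units (y axis) by hours in medium (x axis), derived by subtraction for control medium (left) and as measured for conditioned medium (right). Points are means of 2 arrays and bars their SD (n = 2), shifted sideways for legibility, and IGF2R is left out because of its extreme spot. IGFBP2 runs from -3.29 at 14 h in control medium to 1.09 at 24 h in conditioned medium.

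The effect of conditioned medium at 24 h minus that at 14 h was -1.09 ± 0.55 for IGF2, 0.12 ± 2.07 for IGFBP2, 0.78 ± 0.22 for IGF2R, 1.31 ± 2.20 for AKT1, 0.37 ± 2.14 for GSK3A and 0.49 ± 0.11 for EIF4EBP1. For IGFBP2, AKT1 and GSK3A the arrays pointed opposite ways. IGF2 had the larger score at 14 h on both turned arrays, and EIF4EBP1 at 24 h on both. Both differences change sign in the other reading, to 0.39 for IGF2 and -0.079 for EIF4EBP1.

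Likeness of pattern was measured as Pearson's r over the 8 arrays, which share RNAs, and is a description. Among the 6 genes, EIF4EBP1 and IGFBP2 were most alike (r = 0.82), followed by AKT1 and GSK3A (0.75), with array B turned. In the other reading these became 0.73 and -0.37, so the likeness of AKT1 and GSK3A holds in 1 reading alone. The other 13 pairs lay between -0.22 and 0.44 with array B turned and between -0.76 and 0.72 in the other reading. Among all 2922 genes the most alike, with array B turned, were ACTG1, SDHAF2 and ZBTB24 for IGF2 (r = 0.95, 0.94 and 0.94), SLC25A15, ARF1 and RAP2A for IGFBP2 (0.95, 0.95 and 0.93), and TBCEL, ILRUN and HHEX for AKT1 (0.92, 0.91 and 0.90). For GSK3A they were GTF2A2, TMOD1 and EHD1 (0.94, 0.92 and 0.91), and for EIF4EBP1 they were RNF115, LDHA and RAD9A (0.95, 0.94 and 0.92). Those of IGF2R, RCAN1, NCBP1 and SDR39U1 (0.98, 0.94 and 0.94), were alike over values that include its extreme array. In the other reading the r of these 18 pairs ran from -0.35 (AKT1 and ILRUN) to 0.96 (GSK3A and EHD1), and those of EIF4EBP1 fell to 0.043, 0.34 and 0.012.

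Of 100 further genes of the insulin, IGF and AKT route, 34 were measured. At the matched hours 11 of 34 passed the size rule at 14 h (7 higher and 4 lower, 32.4%, against 19.9% of all genes) and 8 of 34 at 24 h (4 and 4, 23.5%, against 17.6%). The list medians were 0.045 and -0.016, against -0.042 and -0.11 over all genes. The other reading passed 0 and 2 of 34, where 6.37% and 6.02% of all genes passed. The limma test of a shift common to both matched hours called 5.2% of all genes and 5 of these 34. PPP2CA (3.68 ± 0.39, SE here and in this paragraph unless stated, n = 2 values), the catalytic subunit of a phosphatase that acts on AKT, was higher than in the matched controls. So were TRIM63 (2.57 ± 0.40), the muscle ubiquitin ligase that AKT signalling restrains, and EEF2 (1.87 ± 0.42), the translocation factor. EIF4A1 (-2.21 ± 0.38) and EIF4G1 (-1.93 ± 0.41), the helicase and the scaffold of the cap-binding complex that 4E-BP1 blocks, were lower than in the matched controls. The adjusted p of these 5 genes in limma ran from 0.00249 to 0.037. Their SE leaves out the spread between arrays: EIF4G1 scored -1.51 ± 2.04 (SD, n = 2 arrays) at 14 h and missed the size rule there. Over MBN0 limma called none of them, with shifts of -0.86 for PPP2CA, -0.46 for TRIM63, 1.16 for EEF2, 0.052 for EIF4A1 and -0.053 for EIF4G1. The other reading gave 0% of genes called by limma at the matched hours, with 91 at an unadjusted p under 0.05.

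By role, and beside the 19.9% and 17.6% of all genes that passed at 14 and 24 h, 2 of 5 measured binding proteins passed the size rule, IGFBP5 (1.11 ± 0.67) and IGFBP6 (1.33 ± 0.99) at 14 h, and 0 of 5 at 24 h. IGFBP3, IGFBP4 and IGFBP7 scored from -0.68 to 0.26 at both hours and did not pass. In the other reading 0 of 5 passed at 14 h, where IGFBP5 scored 0.47 and IGFBP6 0.70. At 24 h 1 of 5 passed there, IGFBP4 as lower (-1.15). Of all genes 6.37% and 6.02% passed in that reading. Of 5 receptor adaptors and related genes, including IRS2 and GRB10, 0 passed at either hour. Of the AKT substrates, TSC2 and FOXO3 did not pass. In the mTOR and translation group 6 of 14 passed at each hour, with 2 higher and 4 lower, and 0 and 1 of 14 in the other reading. EIF4EBP2, the relative of EIF4EBP1, scored 1.22 ± 0.23 and 2.06 ± 1.59 (SD) and narrowly missed the limma test (adjusted p = 0.0504), while EIF4EBP3 scored 0.053 and -1.18, the latter past the size rule as lower. The glycogen synthase GYS1, a GSK3 substrate, passed at 14 h (1.25 ± 0.031, SD) and scored -0.0060 at 24 h. With array B as deposited GYS1 scored 0.022 at 14 h and 0.27 at 24 h. FBXO32, the other muscle ubiquitin ligase of the list, scored -0.74 and -0.55.

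**Figure D4:**
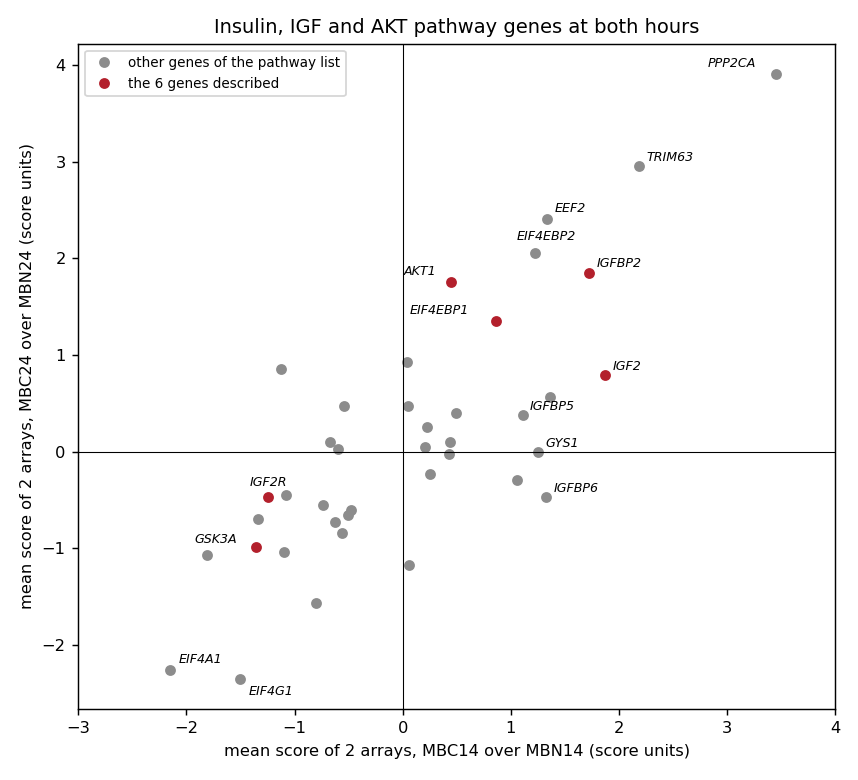
Mean score of 2 arrays in score units in MBC14 over MBN14 (x axis) and MBC24 over MBN24 (y axis) for the 6 genes (red) and 34 other genes of the route (grey), in the Cy5-over-Cy3 reading. Labelled grey points are the genes named by rule, and PPP2CA is the highest at both hours (3.45 and 3.90).

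Ratios carry no level, so the cell type could not be checked by presence of its markers. Of 9 myoblast markers 5 were measured, and 0 of 5 passed the size rule at either matched hour, with means over both hours from -0.83 to 1.13. Of 6 measured blood cell markers 3 passed at each hour and 2 were called by limma, HBA2 and CD37, with means from -0.88 to 3.97, where 19.9% and 17.6% of all genes passed and limma called 5.2%. Of 2 endothelial markers 1 was called, CLDN5, at -1.86. The adipocyte and epithelial markers, 2 each, ranged from -1.21 to 0.73 and gave 0 calls. The part of these genes in the scores of the 6 genes was not tested.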

How the data were processed

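Total RNA was labelled directly with Cy3 or Cy5 and hybridised to spotted muscle arrays with dyes swapped on a second slide, per the labels. The values are the authors' deposited scores, 1 per spot and array. Background correction, normalisation, scale, log base and direction are not given in the sources used here. Some exceed 16 in size, more than log2 ratios from a 16-bit scanner can reach. Scanner intensities were not used here, so signal over background is unknown.

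Each array was centred on its median, and the spots of a gene were averaged. Gene names came from the platform annotation, in which 6610 spots list 1 gene, 106 several and 3268 none. The 2 arrays of a comparison were averaged to 1 value before limma (version 3.58.1, R 4.3.3), whose threshold was an adjusted p of 0.05. The limma fit was run on simulated independent values with a common SD taken from the matched comparisons. Those values hold no shared control and no extreme spot, so they cannot vouch for the fit over MBN0. The members, lists and orientation were chosen with earlier results of these data known. Nothing records separate cultures, so the p-values reflect only the spread among these samples, which may be technical.

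All 6 genes were named with every value. Of the other route genes, those past the size rule at a matched hour or called by limma were named, up to 4 per role by size. The 3 genes most alike to each member were named by r. Genes outside this rule were chosen after their values were seen: IGFBP3, IGFBP4, IGFBP7, IRS2, GRB10, TSC2, FOXO3, EIF4EBP3, FBXO32, TSC1, MLST8 and STK11. The alternatives covered the orientation, centring, scaling, spot averaging, a filter on adjacent spots that differ by over 2 units, the size rule, arrays or spots left out, and other fits.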

Additional observations from a re-analysis of the deposited data

Results flagged for a closer look

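IGFBP2 over MBN0 was below 0 on both arrays at 14 h (-3.04 and -0.087) and above 0 on both at 24 h (0.71 and 1.47), a difference of 2.65 between the hours. These signs hold with array B turned, and array B at 14 h was close to 0. As deposited, array B read 0.087 at 14 h and -1.47 at 24 h, so that the arrays of each hour disagreed, and the difference was 1.10. The difference was not tested.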

How the results depend on the processing

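Of the 10 scores past the size rule, 10 kept their sign without centring, after centring on 51 neighbouring spots, after scaling, with spot medians and without spot 2. Scaling or leaving out an array could not turn them, since the rule asks both arrays for the same sign. Spot medians could not either, since the median of a member's 2 spots is their mean. With array B as deposited 3 of 10 kept it. There IGF2 became -0.48 and GSK3A 0.80 in MBC14 over MBN14, IGFBP2 -0.27, AKT1 -1.05 and EIF4EBP1 -0.14 in MBC24 over MBN24, AKT1 -0.56 in MBC14 over MBN0 and IGFBP2 -0.38 in MBC24 over MBN0. After centring on 11 neighbouring spots IGFBP2 became -0.32 in MBC24 over MBN24, and without spot 1 GSK3A became 0.096 in MBC24 over MBN0. The cause was not tested.

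Members past the rule in MBC14 over MBN14 (4) became 0 with array B as deposited, 2 on 11 neighbours, 1 under the stricter rule (1.5 and 0.75), and 2 to 3 on single arrays, where each array needed 1 unit. Those of MBC24 over MBN24 (3) became 0 and, under the stricter rule, 1. Those of MBC14 over MBN0 (1) became 2 on either single array. Those of MBC24 over MBN0 (2) became 1 with array B as deposited, without centring and on 51 neighbours, 0 under the stricter rule, and 1 to 5 on single arrays. Without noisy spots 1 remained, IGFBP2, since GSK3A then had no value. Over all genes 563 passed in MBC24 over MBN0. That became 200 with array B as deposited, 559 without centring, 447 on 51 neighbours and 418 without noisy spots. Over all genes the stricter rule passed 244, 233, 183 and 209 genes, single arrays 947 to 1015, and 11 neighbours 366 in MBC14 over MBN14.

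The 152 matched-hour calls became 0 with array B as deposited, 2 on 11 neighbours, 36 without noisy spots (1914 genes tested), 9 with all 4 comparisons, and 0 (303 at an unadjusted p under 0.05) to 128 without array A or B. The 168 calls over MBN0 (79 higher, 89 lower) became 0 with array B as deposited, 0 without centring, 20 on 51 neighbours (3 higher, 17 lower), 73 on 11, 9 with all 4 comparisons, and 13 to 32 without array A or B. With arrays entered singly, the comparison was the random block and the array letter a fixed term. All 8 arrays entered 1 fit because 4 cannot give the correlation within a comparison (-0.12). There 218 genes were called at the matched hours and 113 over MBN0. AKT1 (adjusted p = 0.0669 in limma) and IGF2R (0.110) over MBN0 were not called. The shift of IGF2R over MBN0 became -3.29 with array B as deposited and ran from -0.12 to 6.45 without array B or A, and that of AKT1 became -0.72 with array B as deposited. Leaving out the lowest spot value was chosen after it was seen. The filter on noisy spots left IGF2R and IGF2 without a value over MBN0 at either hour. It also removed the value of IGFBP2 at 14 h and that of GSK3A at 24 h. Of the members, only AKT1 and EIF4EBP1 thus entered that fit over MBN0.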

Other observations

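In the limma fit over MBN0, 3 of the 34 other route genes passed, where 5.75% of all genes passed. All 3 belong to the mTOR branch and were looked up after their values were seen. TSC1, a subunit of the complex that holds mTORC1 back, fell (-2.11 ± 0.48, SE, n = 2 values, adjusted p = 0.00135 in limma), and MLST8, a subunit of both mTOR complexes, fell (-1.67 ± 0.48, adjusted p = 0.0172). Both passed the size rule at 14 h (-1.96 ± 0.21 and -1.85 ± 0.20, SD, n = 2 arrays) and at 24 h (-2.25 ± 0.55 and -1.498 ± 0.41) over MBN0. Both also passed it at 14 h against the matched control (-1.81 ± 0.38 and -1.34 ± 0.75), which shares the MBC14 RNA. STK11, the kinase upstream of AMPK, rose over MBN0 (1.504 ± 0.48, SE, adjusted p = 0.0348 in limma), although it passed the size rule only at 24 h (2.02 ± 0.47, SD) and not at 14 h (0.99 ± 0.78). Against the matched control at 24 h, TSC1 (-1.07 ± 0.81, SD), MLST8 (-0.69 ± 0.0014) and STK11 (-0.30 ± 1.45) all missed the size rule. STK11 missed it at 14 h too (1.06 ± 1.09). Medium and hours cannot be told apart in the scores over MBN0. In the conditioned-over-control reading TSC1 scored 0.15 and -0.39 over MBN0, MLST8 0.14 and -0.29, and STK11 0.55 and -0.33. Without centring the arrays, limma called 0 genes over MBN0, these 3 included, with 494 at an unadjusted p under 0.05.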
